A study of Mus musculus with 8 samples.

Results

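The mRNA levels of 10 nuclear receptors that govern lipid, bile acid and drug metabolism were examined in the livers of mice given isoginkgetin (ISOGK) or vehicle. The 10 were chosen by gene symbol from the 16540 genes of the count table. The rule used no measured value, but earlier results of these data were known when it was set. They were *Ppara*, *Pparg* and *Ppard* (the peroxisome proliferator-activated receptors, PPARs), *Nr1h4* (the farnesoid X receptor, FXR), *Nr0b2* (the small heterodimer partner, SHP), *Nr1i2* (the pregnane X receptor, PXR), *Nr1i3* (the constitutive androstane receptor, CAR), *Hnf4a*, *Nr5a2* (the liver receptor homolog LRH-1) and *Esrra* (the estrogen-related receptor alpha). All 10 passed the filter on low counts and were among the 12307 genes tested.

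Liver RNA was sequenced from 4 vehicle-treated and 4 ISOGK-treated male *Apoe*-/- mice, with 1 library per mouse. All 8 mice lacked apolipoprotein E according to their labels and ate a Western diet, and the ISOGK group received 20 mg/kg of the compound per day over 8 weeks by intraperitoneal injection. The table names the vehicle columns after the solvent DMSO, and the labels give no ages. ISOGK is a biflavonoid of the ginkgo tree that the study examined as an inhibitor of ATP citrate lyase, the enzyme that makes acetyl-CoA for fatty acid and cholesterol synthesis.

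Nuclear receptors are transcription factors that small lipophilic molecules can bind and switch. PPARs, FXR, PXR and CAR pair with the retinoid X receptor (RXR) on DNA and sense fatty acids, bile acids and foreign compounds. HNF4A and LRH-1, which maintain the hepatocyte programme, act on DNA without such a partner, and SHP, which has no DNA-binding domain, represses other receptors. The mRNA of a receptor reports how much message is present and not how active the protein is.

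Between 19605286 and 24461854 reads per library were counted on genes in the vehicle group and between 17457106 and 21626399 in the ISOGK group. Scaling factors from the TMM method, which corrects for a few abundant genes taking a larger share of the reads, lay between 1.02 and 1.09 for vehicle and between 0.883 and 1.01 for ISOGK. *Apoe* itself had between 3252 and 6489 counts in every library, so the knockout cannot be read from its count and is taken from the labels. Summed hepatocyte markers overlapped between the groups, as did markers of Kupffer, endothelial, stellate and white blood cells. The 5 cholangiocyte markers had summed levels of 6.27 to 7.71 CPM (counts scaled to 1000000 per library, with TMM factors) in vehicle mice against 7.81 to 14.2 CPM in ISOGK mice. Of these, 4 were tested and 1, *Sox9*, passed the test (log2 fold change 0.51, adjusted p = 0.0494 by edgeR's quasi-likelihood test), and *Cftr* was at 0 in 1 library. The 10 skeletal muscle markers summed to 71.3 CPM in vehicle mouse 4 and to at most 0.576 CPM in the other mice. Kupffer cell markers summed to 1009 to 1325 CPM in vehicle mice and 819 to 1062 CPM in ISOGK mice. ISOGK mice 2, 3 and 4 lay below every vehicle mouse, and 0 of the 7 markers passed edgeR's test. *Cd5l*, from 407 to 667 CPM, was the largest part of each sum, and single markers did not move together. In ISOGK mouse 4, *Vsig4* had 5.34 CPM, against 75.0 CPM or more in every other mouse. *Clec4f* was instead lowest in vehicle mouse 1, at 73.0 CPM, against 163 CPM or more in every other mouse. The share of any of these markers in the receptor results was not tested.

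In the plot of levels by mouse, *Nr1i3* is the receptor whose groups are apart. Its mRNA rose 1.37-fold, and it was the 1 receptor of the 10 with an adjusted p under 0.05, while none of the 10 fell. Over all genes tested by edgeR's quasi-likelihood test, 7.55% passed that threshold, 4.11% with a rise and 3.44% with a fall. At 2-fold or more, 0 of the 10 passed, against 1.63% of all genes. Without adjustment, *Nr1i3* was again the 1 receptor with p under 0.05, against 24.2% of all genes, and DESeq2 and limma-voom each called 1 of the 10 as well. The groups did not overlap for 1 of the 10, against 15.3% of all genes (7.92% higher and 7.36% lower under ISOGK). The share of receptors called was therefore close to the background. The median log2 fold change was 0.06 over the receptors and 0.0018 over all genes. The median over the receptors was 0.037, 0.035, 0.021 and 0.086 without vehicle mouse 1, vehicle mouse 3, ISOGK mouse 3 and ISOGK mouse 4, and -0.069 with scaling by library size alone.

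**Figure D1:**
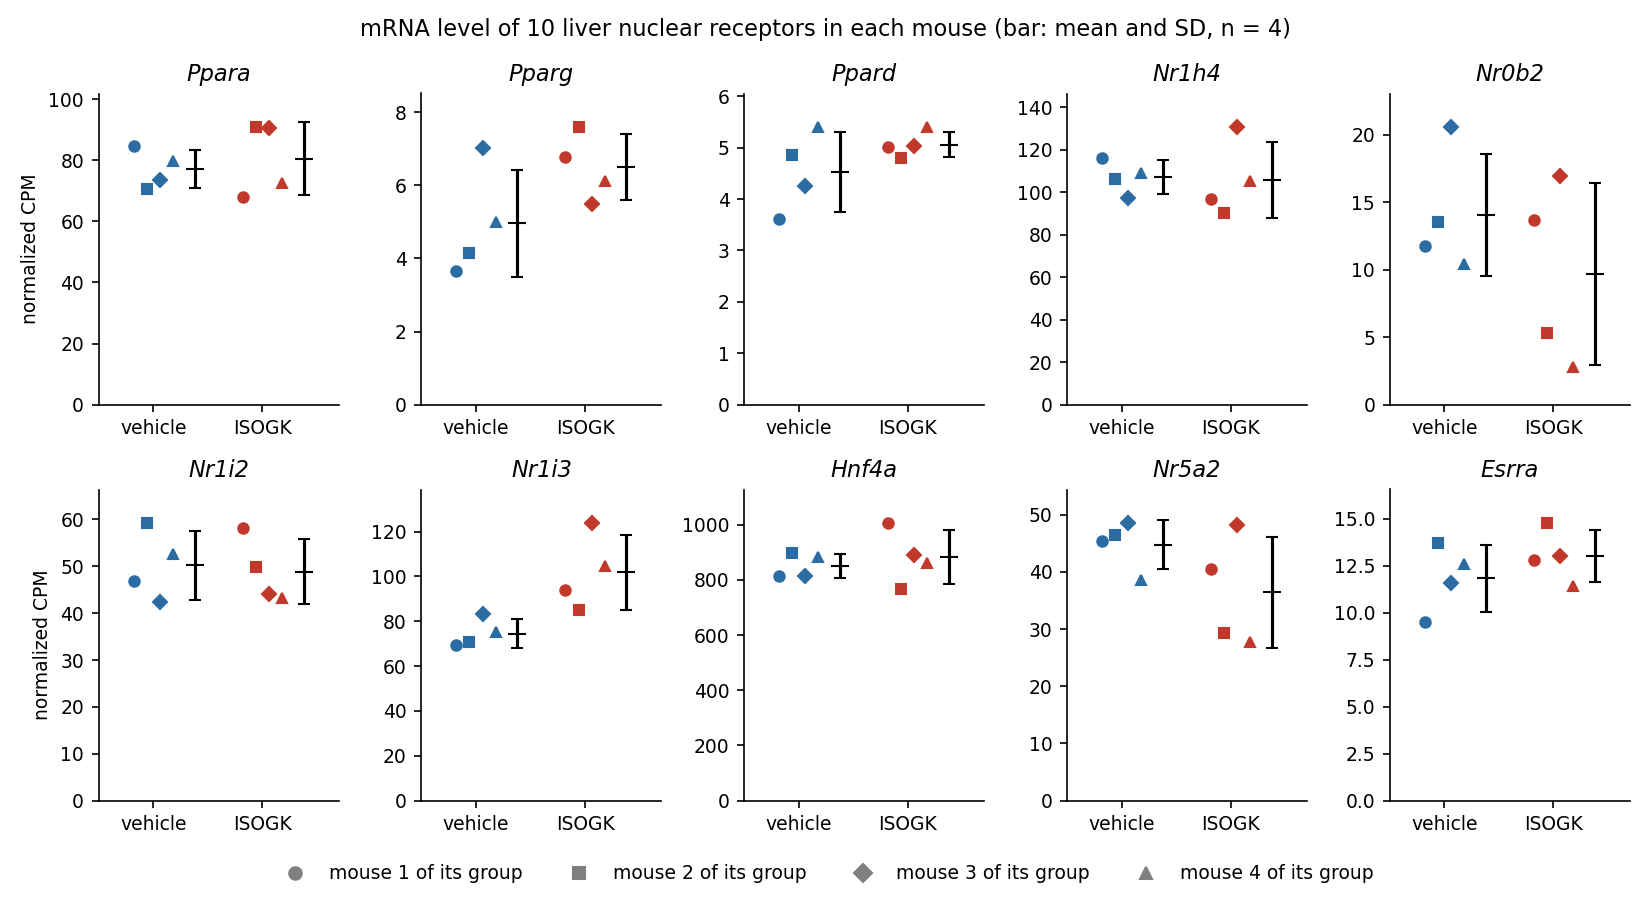
Normalized CPM (vertical axis, from 0) of each receptor in the 4 vehicle (blue) and 4 ISOGK (red) mice, with the marker shape giving the mouse number within its group and the bar the mean and SD. *Nr1i3* is the panel without overlap, from 69.2 to 83.3 CPM against 85 to 124 CPM, and *Nr0b2* has the widest ISOGK group, from 2.83 to 17 CPM.

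CAR and PXR are the receptors that sense drugs, steroids and bilirubin and switch on genes for their oxidation, conjugation and export. *Nr1i3* (chromosome 1, 171213970 to 171220701, plus strand, GRCm38) stood at 69.2, 70.6, 83.3 and 75.0 CPM in vehicle mice 1 to 4 and at 94.0, 85, 124 and 105 CPM in ISOGK mice 1 to 4. With TMM factors, every ISOGK mouse lay above every vehicle mouse, with the narrowest gap between vehicle mouse 3 and ISOGK mouse 2. By library size alone that separation was lost. *Nr1i3* took 2139 of 23589084 reads in vehicle mouse 3 and 1611 of 19742935 reads in ISOGK mouse 2, the smaller share. The means were 74.5 ± 6.35 CPM and 102 ± 16.7 CPM (SD, n = 4 each), a log2 fold change of 0.45 (SE 0.12, 95% interval 0.19 to 0.71, adjusted p = 0.0415 by edgeR's quasi-likelihood test). In bulk liver, a change in the number of cells of a type cannot be told apart from a change in the RNA of each cell.

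The call for *Nr1i3* lay close to the threshold. It was past the threshold under 9 of 16 other settings, with adjusted p between 0.0102 (DESeq2) and 0.153. It was lost with scaling by library size alone (log2 fold change 0.32, adjusted p = 0.153 by edgeR), a scaling under which the median of all genes moved to -0.13. It was also lost in edgeR without vehicle mouse 1, 2, 3 or 4 (adjusted p = 0.114, 0.125, 0.0553 and 0.0867) and without ISOGK mouse 3 or 4 (0.0601 and 0.0725). The estimate stayed between 0.32 and 0.53 under the 16 settings.

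The exons of *Nr1i3* also overlap those of *Tomm40l*, a mitochondrial import gene on the opposite strand. They share 3304 bases over all annotated exons, and the 3 best-supported *Nr1i3* transcripts share 936 of 1414, 828 of 1305 and 932 of 1359 bases with it. Whether the counting used strand is not stated, so reads from the shared bases cannot be assigned with certainty. *Tomm40l* had 18.0, 20.8, 16.9 and 19.5 CPM in the vehicle mice and 19.9, 26.1, 20.9 and 18.0 CPM in the ISOGK mice, and these groups overlapped. Its log2 fold change was 0.18 (SE 0.12, 95% interval -0.09 to 0.45, edgeR's adjusted p = 0.422), and its counts were below those of *Nr1i3* in every mouse.

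PXR showed no such separation. *Nr1i2* (chromosome 16, 38248323 to 38294824, minus strand) had 46.8, 59.3, 42.3 and 52.7 CPM in the vehicle mice and 58.2, 49.9, 44.1 and 43.3 CPM in the ISOGK mice. The groups covered almost the same range, with vehicle mouse 2 highest and vehicle mouse 3 lowest. The means were 50.3 ± 7.36 and 48.9 ± 6.85 CPM (SD, n = 4 each), with a log2 fold change of -0.04 (SE 0.13, 95% interval -0.31 to 0.23, edgeR's adjusted p = 0.881), and the interval leaves room for folds between 0.804 and 1.18. Within each mouse, *Nr1i3* counts were 1.19 to 1.97 times those of *Nr1i2* in vehicle mice against 1.62 to 2.81 times in ISOGK mice, ranges that overlapped.

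The upstream sequences of *Nr1i3* and *Nr0b2* are shown because the former was the receptor that passed the test and the latter the one that varied most between mice of a group. Each runs over the 250 bases before the RefSeq transcription start (GRCm38.p6, plus strand), at chr1:171213720-171213969 for *Nr1i3* and chr4:133553126-133553375 for *Nr0b2*. Capitals mark CACGTG, the E-box read by the clock factors CLOCK and BMAL1, and TCAAGG, the opening letters of the extended site TCAAGGTCA that LRH-1 and the estrogen-related receptors bind as monomers.
Nr1i3: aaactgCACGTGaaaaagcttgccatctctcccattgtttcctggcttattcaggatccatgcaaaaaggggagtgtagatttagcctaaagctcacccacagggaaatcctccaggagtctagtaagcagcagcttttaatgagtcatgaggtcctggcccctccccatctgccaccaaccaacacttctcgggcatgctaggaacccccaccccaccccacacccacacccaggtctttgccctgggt
Nr0b2: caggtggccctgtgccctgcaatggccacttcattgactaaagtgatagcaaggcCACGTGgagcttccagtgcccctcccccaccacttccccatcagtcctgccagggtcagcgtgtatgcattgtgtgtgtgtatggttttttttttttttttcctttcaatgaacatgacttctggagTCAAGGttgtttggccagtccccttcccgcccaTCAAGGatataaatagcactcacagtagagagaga

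The 10 receptors had 14 such windows in RefSeq, among 32851 over all genes, and each motif was searched on both strands. CACGTG was in the windows of *Nr0b2*, 195 bases before the start, and *Nr1i3*, 244 bases before it, and in 6.02% of all windows. TCAAGG was in the window of *Nr0b2* alone among the 10, at 68 and 35 bases before the start, and in 12.5% of all windows. The nuclear receptor hexamer AGGTCA was in 4 windows of 3 receptors (*Nr1h4*, *Nr5a2* and *Pparg*) and in 14.0% of all windows. The full extended site TCAAGGTCA (0.387% of all windows, each of which also holds TCAAGG and AGGTCA) and the HNF4-type site CAAAGTCCA (0.384%) were in no window of the 10. The same held for direct repeats of AGGTCA with 1 base (0.0335%) or 4 bases (0.0152%) between them, of the kind bound by PPARs and by other RXR partners, and for its inverted repeat with 1 base between (0.00609%), of the kind bound by FXR. A match gives only that the letters are present, and binding was not measured.

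FXR senses bile acids and induces SHP, which in turn represses bile acid synthesis. *Nr1h4* (chromosome 10, 89454234 to 89533585, minus strand) had 116, 106, 97.0 and 109 CPM in the vehicle mice and 96.7, 90.2, 131 and 105 CPM in the ISOGK mice. The ISOGK mice held both the highest and the lowest value, so the groups overlapped throughout. The means were 107 ± 7.92 and 106 ± 17.7 CPM (SD, n = 4 each), with a log2 fold change of -0.02 (SE 0.12, 95% interval -0.28 to 0.24, edgeR's adjusted p = 0.942).

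SHP mRNA varied more between mice of a group than that of any other receptor of the 10. *Nr0b2* (chromosome 4, 133553376 to 133556536, plus strand) had 11.7, 13.6, 20.6 and 10.5 CPM in the vehicle mice and 13.7, 5.28, 17 and 2.83 CPM in the ISOGK mice. ISOGK mice 2 and 4 lay below every vehicle mouse, while ISOGK mice 1 and 3 lay within the vehicle range, so the groups overlapped. The highest ISOGK mouse had 6.0 times the level of the lowest. The means were 14.1 ± 4.52 and 9.69 ± 6.72 CPM (SD, n = 4 each), with a log2 fold change of -0.55 (SE 0.53, 95% interval -1.79 to 0.70, edgeR's adjusted p = 0.587), and the interval spans folds from 0.289 to 1.63.

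Counting error is not large beside that spread. The libraries held 234, 343, 529 and 234 counts of *Nr0b2* in the vehicle group and 279, 100, 300 and 54 in the ISOGK group. At the mean count, counting alone gives a coefficient of variation of 6.21%, against 32.1% between vehicle mice and 69.3% between ISOGK mice. Leaving out 1 mouse moved the log2 fold change over 1.5 times without vehicle mouse 3 (-0.30), ISOGK mouse 2 (-0.34), ISOGK mouse 3 (-0.96) or ISOGK mouse 4 (-0.24), with no call in any of these fits. Per mouse, the ratio of *Nr0b2* to *Nr1h4* counts ran from 0.0958 to 0.212 in the vehicle group and from 0.0269 to 0.142 in the ISOGK group, and the ranges overlapped.

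LRH-1 drives bile acid and cholesterol genes and, together with FXR, the gene for SHP. *Nr5a2* (chromosome 1, 136842571 to 136960448, minus strand) had 45.5, 46.5, 48.6 and 38.6 CPM in the vehicle mice and 40.5, 29.3, 48.2 and 27.8 CPM in the ISOGK mice. ISOGK mice 2 and 4 were again below every vehicle mouse and ISOGK mice 1 and 3 within the vehicle range. The means of 44.8 ± 4.31 and 36.4 ± 9.66 CPM (SD, n = 4 each) gave a log2 fold change of -0.30 (SE 0.16, 95% interval -0.66 to 0.06, edgeR's adjusted p = 0.292), and it was -0.47 without ISOGK mouse 3 (adjusted p = 0.0620), -0.21 without ISOGK mouse 2 (0.531) and -0.19 without ISOGK mouse 4 (0.529). Sorted by level, the mice came in the same order for *Nr5a2* and *Nr0b2* in both groups, from mouse 4 through 1 and 2 to 3 in the vehicle group and from mouse 4 through 2 and 1 to 3 in the ISOGK group. Other pairs shared an order within a group, such as *Nr1h4* and *Nr1i3* in the ISOGK group and *Hnf4a* and *Esrra* in the vehicle group. Such an order is a description of 4 mice a group and was not tested.

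HNF4A, the factor that maintains hepatocyte identity, was the most abundant of the 10 and had the smallest spread when both groups were pooled. *Hnf4a* (chromosome 2, 163506808 to 163572910, plus strand) had 813, 896, 813 and 882 CPM in the vehicle mice and 1007, 768, 891 and 863 CPM in the ISOGK mice, from 14550 to 22652 counts per library. ISOGK mice held both extremes, with mouse 1 highest and mouse 2 lowest. With means of 850.9 ± 44.2 and 882 ± 98.4 CPM (SD, n = 4 each), the log2 fold change was 0.05 (SE 0.10, 95% interval -0.17 to 0.28, edgeR's adjusted p = 0.804), which bounds the fold between 0.887 and 1.21. Per mouse, the ratio of *Nr5a2* to *Hnf4a* counts was 0.0438 to 0.0598 in vehicle mice against 0.0322 to 0.0540 in ISOGK mice, with overlap.

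Of the PPARs, PPARA switches on fatty acid oxidation in the fasting liver, PPARG drives fat storage and is low in normal hepatocytes, and PPARD is found at modest levels in most tissues. *Ppara* (chromosome 15, 85734983 to 85802819, plus strand) had 84.7, 70.6, 73.5 and 79.8 CPM in the vehicle mice and 68.0, 90.9, 90.7 and 72.5 CPM in the ISOGK mice. ISOGK mice 2 and 3 were above every vehicle mouse, ISOGK mouse 1 was below every vehicle mouse, and ISOGK mouse 4 lay between them. Between means of 77.1 ± 6.33 and 80.5 ± 12 CPM (SD, n = 4 each), the log2 fold change was 0.06 (SE 0.11, 95% interval -0.19 to 0.31, edgeR's adjusted p = 0.791), which bounds the fold between 0.878 and 1.24.

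*Pparg* (chromosome 6, 115360951 to 115490399, plus strand) had 3.66, 4.15, 7.01 and 5.0 CPM in the vehicle mice and 6.77, 7.60, 5.48 and 6.13 CPM in the ISOGK mice. Vehicle mouse 3 stood within the ISOGK range, and the other vehicle mice were below every ISOGK mouse. Means of 4.96 ± 1.48 and 6.50 ± 0.904 CPM (SD, n = 4 each) corresponded to a log2 fold change of 0.39 (SE 0.20, 95% interval -0.05 to 0.82, edgeR's adjusted p = 0.265), from 73 to 180 counts per library. Without vehicle mouse 3 it was 0.60 (adjusted p = 0.0918), which is still short of the threshold. The adipocyte markers *Adipoq*, *Plin1*, *Lep* and *Retn* were not among the genes of the table, and the remaining 2 of the 6 markers summed to 1.07 to 1.81 CPM in vehicle mice against 1.07 to 2.31 CPM in ISOGK mice, with overlap.

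*Ppard* (chromosome 17, 28232700 to 28301474, plus strand) had 3.61, 4.87, 4.24 and 5.40 CPM in the vehicle mice and 5.0, 4.80, 5.03 and 5.40 CPM in the ISOGK mice. The ISOGK mice were close together inside the upper part of the vehicle range. With means of 4.53 ± 0.775 and 5.06 ± 0.247 CPM (SD, n = 4 each), the log2 fold change was 0.16 (SE 0.16, 95% interval -0.18 to 0.50, edgeR's adjusted p = 0.586), from 72 to 123 counts per library, at which counting alone gives a coefficient of variation of 9.94%. Without vehicle mouse 4, whose library held the muscle transcripts, the value was 0.25 (adjusted p = 0.413), and it was 0.07 without vehicle mouse 1 (adjusted p = 0.860). Per mouse, the ratio of *Pparg* to *Ppara* counts was 0.0432 to 0.0954 in vehicle mice against 0.0605 to 0.0996 in ISOGK mice. That of *Ppard* to *Ppara* was 0.0427 to 0.0689 and 0.0528 to 0.0744, so neither ratio set the groups apart.

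ESRRA is an orphan receptor that works with the coactivator PGC-1 alpha on genes of mitochondrial respiration. *Esrra* (chromosome 19, 6910977 to 6921813, minus strand) had 9.48, 13.7, 11.6 and 12.6 CPM in the vehicle mice and 12.8, 14.8, 13.0 and 11.4 CPM in the ISOGK mice. Vehicle mouse 1 was lowest and ISOGK mouse 2 highest, and the other mice were interleaved. Between means of 11.8 ± 1.79 and 13.0 ± 1.38 CPM (SD, n = 4 each), the log2 fold change was 0.13 (SE 0.13, 95% interval -0.16 to 0.43, edgeR's adjusted p = 0.588), with 189 to 346 counts per library, and it was 0.04 without vehicle mouse 1 and 0.21 without vehicle mouse 2. *Esrra* shares 73 exonic bases with the antisense gene *Trmt112*, whose log2 fold change was 0.03 (edgeR, adjusted p = 0.879).

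In the plot of fold changes, the intervals of 9 receptors include 0. The receptors with narrow intervals (*Hnf4a*, *Ppara*, *Nr1h4* and *Nr1i2*) were measured closely enough to bound their folds between 0.804 and 1.24. For *Nr0b2* the interval was too wide to bound a change of 2-fold in the lower direction.

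**Figure D2:**
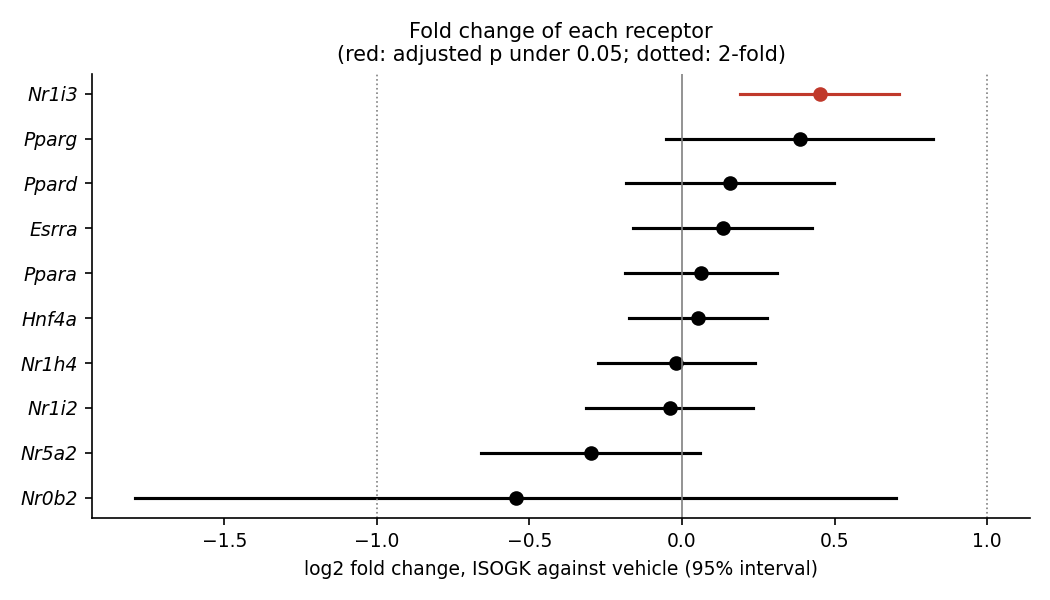
Log2 fold change of ISOGK against vehicle (horizontal axis) for each receptor, with its 95% interval from edgeR's fit and dotted lines at 2-fold. *Nr1i3* (red) has an interval of 0.19 to 0.71, and *Nr0b2* has the widest, from -1.79 to 0.70.

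Between the receptors, levels were compared per kb of the principal transcript of each gene in GENCODE M21. In the vehicle group, *Hnf4a* stood highest at 195 ± 10.1 CPM per kb (SD, n = 4), followed by *Nr1h4* at 54.5 ± 4.04 and *Nr1i3* at 52.7 ± 4.49 CPM per kb. *Nr5a2*, *Ppara* and *Nr1i2* formed a middle tier at 24.1 ± 2.32, 22.6 ± 1.85 and 19.7 ± 2.88 CPM per kb. *Nr0b2* was at 12.4 ± 4.00, *Esrra* at 5.28 ± 0.798, *Pparg* at 2.81 ± 0.835 and *Ppard* at 1.38 ± 0.236 CPM per kb. Neighbours in that order whose mice overlapped were *Nr1h4* and *Nr1i3*, *Nr5a2* and *Ppara*, *Ppara* and *Nr1i2*, and *Nr1i2* and *Nr0b2*.

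In the ISOGK group the order of the means changed among neighbours. *Nr1i3* came second at 72.1 ± 11.8 CPM per kb, ahead of *Nr1h4* at 53.8 ± 9.03, and their mice still overlapped. *Ppara* at 23.6 ± 3.52 CPM per kb came ahead of *Nr5a2* at 19.6 ± 5.20, again with overlap. *Nr0b2* at 8.56 ± 5.93 CPM per kb straddled *Esrra* at 5.80 ± 0.614, with ISOGK mice 2 and 4 below every *Esrra* value and mice 1 and 3 above. The ranks of *Nr1i3* and *Nr5a2* depend on the transcript taken as the length, since merging all annotated exons gave 16.9 and 7.60 CPM per kb for them in the vehicle group.

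**Figure D3:**
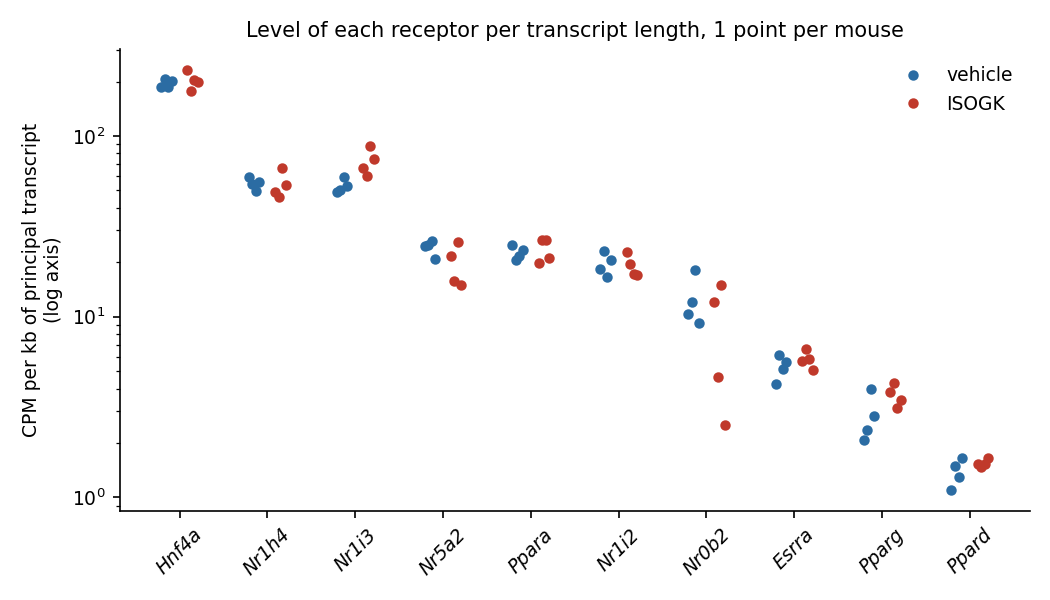
CPM per kb of principal transcript (vertical log axis) of each receptor, 1 point per mouse, with vehicle in blue and ISOGK in red. The vehicle means run from 195 CPM per kb for *Hnf4a* to 1.38 for *Ppard*, and the red points of *Nr1i3* sit above its blue points.

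The spread between mice of a group was compared on the log2 CPM scale with that of all genes tested. *Nr0b2* was at the 98.8th percentile, with an SD of 0.42 between vehicle mice and 1.19 between ISOGK mice. The next were *Pparg* at the 74.4th and *Nr5a2* at the 69.7th percentile, and *Hnf4a* was lowest at the 17.6th. The other 6 receptors lay between the 37.6th and the 47.8th percentile. Spread differed widely across the receptors, and *Nr0b2* alone was above the 90th percentile.

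Core clock genes also varied between the mice. Of the 12 clock genes tested, 8 were above the 90th percentile of within-group spread, with a median at the 96.6th. *Dbp*, a clock output factor chosen for display after its values were seen, had 6.22, 14.8, 26.9 and 11.6 CPM in the vehicle mice and 10.5, 0.369, 0.396 and 0.681 CPM in the ISOGK mice. *Arntl*, which encodes BMAL1 and was chosen in the same way, had 12.9, 16.6, 5.61 and 13.8 CPM and 13.9, 38.4, 30.9 and 25.6 CPM. For both genes ISOGK mouse 1 lay with the vehicle mice, and ISOGK mice 2, 3 and 4 lay apart from them. *Clock*, *Per1* and *Per2* did not divide the mice in this way. None of the 12 passed edgeR's quasi-likelihood test with adjustment, and 7 had an unadjusted p under 0.05, against 24.2% of all genes. DESeq2 called 5, limma-voom called 3, and edgeR without ISOGK mouse 1 called 8, against 11.7%, 7.09% and 7.93% of all genes.

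The 10 receptors did not divide the mice in that way. Among the other nuclear receptors, the clock repressors *Nr1d1* and *Nr1d2*, named after their values were seen, did. *Nr1d1* had 58.3, 82.6, 56.6 and 71.3 CPM in the vehicle mice and 64.9, 9.87, 16.5 and 3.56 CPM in the ISOGK mice (log2 fold change -1.497, SE 0.82, edgeR's adjusted p = 0.323). *Nr1d2* had 46.1, 54.1, 49.0 and 45.5 CPM in the vehicle mice and 41.6, 16.0, 16.2 and 10.2 CPM in the ISOGK mice (-1.21, SE 0.40, edgeR's adjusted p = 0.118). ISOGK mouse 1 lay within the vehicle range for *Nr1d1* and just under it for *Nr1d2*, far from ISOGK mice 2, 3 and 4. *Nr1i3* at 94.0 CPM in ISOGK mouse 1 was above every vehicle mouse, and its fold change without ISOGK mouse 1 was 0.49 (edgeR, adjusted p = 0.0445). *Nr0b2* and *Nr5a2* were low in ISOGK mice 2 and 4 but not in mouse 3, which had the highest ISOGK level of both. The labels do not give the hour at which livers were taken, and its part in the receptor levels was not tested.

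**Figure D4:**
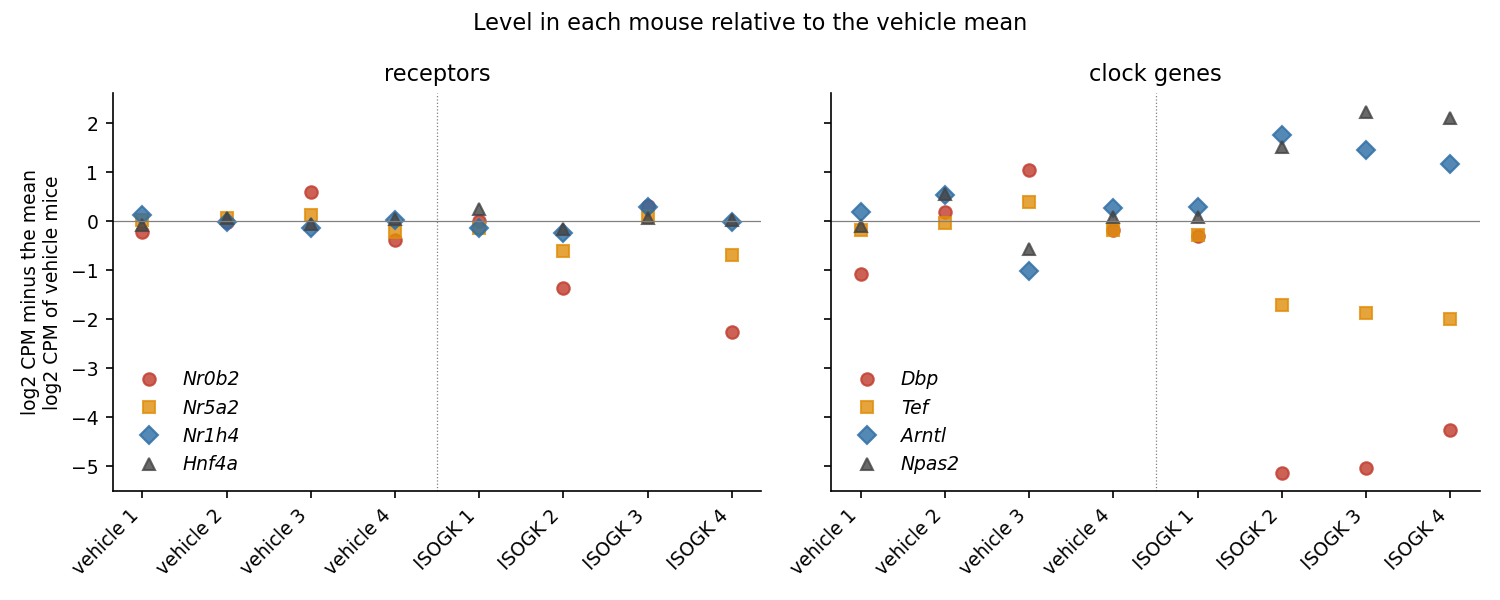
Log2 CPM of each mouse minus the mean of the vehicle mice (vertical axis) for 4 receptors on the left and 4 clock genes on the right, with a dotted line between the groups. *Nr0b2* is low in ISOGK mice 2 and 4, where it has 5.28 and 2.83 CPM. The 4 clock genes shown, chosen for display from the 12 tested, shift in ISOGK mice 2, 3 and 4 and not in mouse 1. *Clock*, *Per1* and *Per2*, which are not shown, do not divide the mice in that way.

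Among 27 other nuclear receptors tested, 2 rose and 3 fell by edgeR's quasi-likelihood test, and the median log2 fold change was -0.10 (-0.16 without ISOGK mouse 3, -0.040 without ISOGK mouse 4 and -0.15 by limma-voom). *Esrrg*, a relative of *Esrra*, rose from 0.83 ± 0.150 to 2.50 ± 0.595 CPM (log2 fold change 1.59, SE 0.26, adjusted p = 0.00436). *Thrb*, the main thyroid hormone receptor of hepatocytes, fell from 26.9 ± 3.83 to 14.5 ± 3.32 CPM (-0.89, SE 0.16, adjusted p = 0.00815). Both were called under all 16 other settings, and their groups did not overlap.

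*Esr1*, the estrogen receptor, rose from 9.48 ± 1.67 to 15.6 ± 3.25 CPM (log2 fold change 0.72, SE 0.17, edgeR's adjusted p = 0.0281), with vehicle and ISOGK mice touching at 11.3 CPM. *Nr3c1*, the glucocorticoid receptor, fell from 51.3 ± 4.74 to 38.6 ± 4.32 CPM (-0.41, SE 0.11, edgeR's adjusted p = 0.0376) without overlap. The call for *Esr1* was lost under 6 of 16 settings (library size alone, and without vehicle mouse 1, 2 or 3 or ISOGK mouse 2 or 4), with adjusted p up to 0.0835. That for *Nr3c1* was lost under 7 (the replicate block, and without vehicle mouse 1, 2 or 3 or ISOGK mouse 1, 2 or 4), with adjusted p up to 0.121. *Rxra*, named as the partner of the receptors although outside the rule for named genes, averaged 431 CPM and 385 CPM (log2 fold change -0.17, edgeR's adjusted p = 0.328), and *Rxrb* had -0.01 (adjusted p = 0.978).

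Coactivators and corepressors are the proteins through which receptors switch genes on or off. None of 14 coactivators and none of 8 corepressors passed edgeR's quasi-likelihood test, with a median log2 fold change of -0.14 in each list. The median of the coactivators was -0.068 without ISOGK mouse 1, and that of the corepressors was -0.086 without vehicle mouse 2 and -0.050 without ISOGK mouse 4. At an unadjusted p under 0.05 by edgeR there were 4 coactivators (*Ncoa2*, *Med1* and *Kat2b* with lower estimates and *Carm1* with a higher one) and 1 corepressor. Over all genes, 24.2% had such a p, so neither count stands out from the background. DESeq2 called 1 of each list lower and limma-voom called 0. Library size alone called 2 coactivators lower, and edgeR without ISOGK mouse 3 called 1 corepressor lower.

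Genes known as targets of the receptors were examined beside them, from lists put together by hand with earlier results of these data known. The counts within each list therefore depend in part on which genes were placed in it. Of 34 PPARA targets, 32 rose and 0 fell (edgeR, adjusted p under 0.05), with a median log2 fold change of 0.91, while *Ppara* itself was at 0.06. *Ehhadh*, of the peroxisomal beta-oxidation pathway, went from 309 ± 29.6 to 1837 ± 194 CPM (2.57, SE 0.12, adjusted p = 4.7e-07). The fatty acid hydroxylase *Cyp4a14* went from 1255 ± 171 to 5458 ± 714 CPM (2.12, SE 0.13, adjusted p = 1.0e-05), and *Cyp4a31* from 14.7 ± 1.96 to 76.0 ± 16.8 CPM (2.37, SE 0.16, adjusted p = 3.5e-05). *Acadm* at 0.23 (adjusted p = 0.142) and *Fabp1* at 0.25 (adjusted p = 0.344), named because they are the exceptions, did not pass. Between 26 and 32 of the list rose and 0 fell under the 16 other settings. The Cyp4a genes are near copies of each other, and how reads shared between them were counted is not stated.

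Of the 10 PPARG targets, 5 were tested, 1 rose and 1 fell. *Cidec*, a lipid droplet protein, rose from 1.22 ± 0.346 to 18.3 ± 9.13 CPM (log2 fold change 3.92, SE 0.42, edgeR's adjusted p = 0.00163). *Lpl*, lipoprotein lipase, fell from 87.6 ± 6.18 to 44.0 ± 12.6 CPM (-0.995, SE 0.18, edgeR's adjusted p = 0.00951). Both were called under all 16 other settings, and the median of the 5 was -0.15. That median had no stable sign, at -0.0049 without vehicle mouse 1, -0.25 without ISOGK mouse 1 and 0.073 without ISOGK mouse 2. Without the filter on low counts, 8 genes of the list were tested, and their median was 0.098.

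Of 8 FXR targets tested, 2 rose and 1 fell, with a median log2 fold change of -0.05 (-0.092 without vehicle mouse 3, and -0.11, -0.080, -0.034 and -0.026 without ISOGK mouse 1, 2, 3 and 4). *Abcb4*, the canalicular phospholipid transporter, rose from 209 ± 23.8 to 364 ± 35.1 CPM (0.80, SE 0.11, edgeR's adjusted p = 0.00178). *Abcb11*, the bile salt export pump, fell from 551 ± 63.3 to 262 ± 57.1 CPM (-1.07, SE 0.15, edgeR's adjusted p = 0.00183). The pump and the phospholipid transporter thus moved in opposite directions, and both were called under all 16 other settings. *Baat*, which conjugates bile acids, rose from 235 ± 17.4 to 309 ± 31.0 CPM (0.39, SE 0.10, edgeR's adjusted p = 0.0376). That call was lost under 8 of 16 settings (library size alone, the replicate block, and without any vehicle mouse or ISOGK mouse 2 or 4), which leaves 1 target with a rise. DESeq2 and library size alone each called 3 targets lower, and the replicate block called 2.

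Of 3 genes known to be repressed by SHP, *Cyp8b1*, the sterol 12-alpha-hydroxylase, rose from 218 ± 53.2 to 680 ± 252 CPM (log2 fold change 1.64, SE 0.26, edgeR's adjusted p = 0.00741) and was called under all 16 other settings. *Cyp7a1*, the rate-limiting enzyme of bile acid synthesis, was named because SHP is best known for repressing it, and it had a log2 fold change of -0.39 (SE 0.42, edgeR's adjusted p = 0.626). *Cyp8b1* belongs to the list of LRH-1 targets too. Of these 7 genes, 1 rose and 2 fell, with a median of -0.54 (-0.27 without ISOGK mouse 4). The 7 include the receptor gene *Nr0b2* itself, at -0.55, and *Cyp7a1*, *Scarb1*, *Abcg5* and *Abcg8*, which are in other lists too. *Abcg5*, a sterol transporter, fell from 75.8 ± 9.95 to 49.2 ± 7.17 CPM (-0.62, SE 0.12, edgeR's adjusted p = 0.0109). DESeq2 and library size alone each called 4 of the 7 lower.

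Of 16 PXR and CAR targets tested, 1 rose and 5 fell, with a median log2 fold change of -0.29. The median was -0.47 over 18 genes without the filter on low counts and -0.14 over 14 with at least 10 counts in every library. *Nr1i3* itself was at 0.45 and *Nr1i2* at -0.04. *Cyp2b9* fell from 15.3 ± 4.30 to 0.929 ± 0.917 CPM (-4.07, SE 0.51, edgeR's adjusted p = 0.00322). *Cyp2c29* fell from 953 ± 92.5 to 594 ± 98.4 CPM (-0.68, SE 0.13, edgeR's adjusted p = 0.00900), and *Cyp3a13* rose from 252 ± 25.4 to 387 ± 86.1 CPM (0.62, SE 0.14, edgeR's adjusted p = 0.0248). The other 3 that fell, named to complete the count, were *Cyp3a11* (-0.71), *Cyp2c55* (-1.73) and *Gstm1* (-0.52). *Cyp2b10*, the gene by which CAR activation is usually read and therefore named here, had a log2 fold change of -1.96 (SE 0.53, edgeR's adjusted p = 0.0631), short of the threshold.

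The counts of this list moved with single mice. The 5 that fell became 3 without vehicle mouse 1 or ISOGK mouse 2 and 2 without vehicle mouse 2, vehicle mouse 4 or ISOGK mouse 1. They became 3 with at least 10 counts required in every library, a filter that removes *Cyp2b9* and *Cyp2c55*, and 7 under DESeq2 or library size alone. The rise of *Cyp3a13* was lost without vehicle mouse 1, 3 or 4 or ISOGK mouse 2. The Cyp2b, Cyp2c and Cyp3a genes belong to families of near copies, so reads may have been split between relatives.

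Of 14 HNF4A targets, 1 rose and 1 fell, with a median log2 fold change of -0.015 that changed sign without vehicle mouse 1 (0.017) or ISOGK mouse 4 (0.014) and reached -0.058 without ISOGK mouse 3. *Mttp*, which loads lipid onto apolipoprotein B, rose from 273 ± 27.8 to 391 ± 27.1 CPM (0.52, SE 0.10, edgeR's adjusted p = 0.0112), and the call was lost under library size alone (adjusted p = 0.0592). The gene that fell was *Abcg5*. Called higher and lower were 2 and 3 under DESeq2 and under the replicate block, and 0 and 3 under library size alone. Without vehicle mouse 1, 2 were called higher, and without ISOGK mouse 1, 3 were called lower.

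Of 9 ERRA targets tested, 2 rose and 0 fell, with a median log2 fold change of 0.23. That median is the value of *Acadm*, which is also in the PPARA list. By edgeR, 5 had an unadjusted p under 0.05, against 24.2% of all genes. The count was 2 with library size alone and 3 or 4 with each mouse left out. *Pdk4*, which restrains pyruvate oxidation and is also in the PPARA list, rose from 7.69 ± 0.956 to 34.4 ± 14.5 CPM (2.16, SE 0.31, edgeR's adjusted p = 0.00547). *Cycs*, cytochrome c, rose from 88.4 ± 11.9 to 122 ± 10.4 CPM (0.47, SE 0.11, edgeR's adjusted p = 0.0267), a call lost under library size alone and without vehicle mouse 3 or 4 or ISOGK mouse 2 or 4. In the plot of receptors and targets, each receptor lies between -0.55 and 0.45, and every row holds a target farther from 0 than its receptors.

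**Figure D5:**
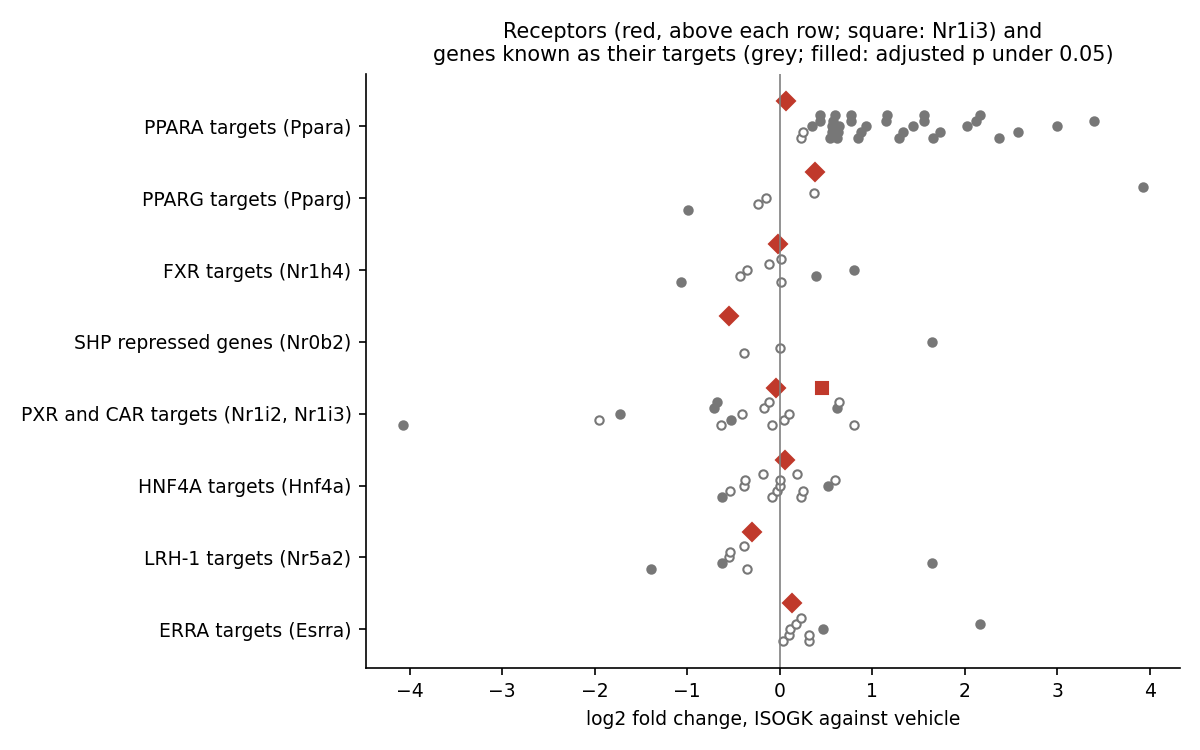
Log2 fold change of ISOGK against vehicle (horizontal axis) of each receptor (red, above its row, with *Nr1i3* as the square) and of the tested genes known as its targets (grey circles, filled where the adjusted p is under 0.05). *Ppara* is at 0.06 while 32 of its 34 listed targets are filled and higher, and the other rows hold targets on both sides of 0 except the row of ERRA.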

How the data were processed

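Liver mRNA was sequenced single-end from 4 vehicle and 4 ISOGK mice, grouped by their labels. The authors aligned reads with HISAT2, took counts from StringTie, which derives them from transcript coverage, and deposited whole-number values per gene without normalization for 16540 symbols. The genome build is mm10 per the labels, and the use of strand is not stated. Genes were filtered with edgeR 4.0.16 (filterByExpr, minimum count 10, minimum total 15), scaled by TMM and fitted with the robust quasi-likelihood test in R 4.3.3, with Benjamini-Hochberg adjustment over 12307 genes and a threshold of 0.05. CPM carry TMM factors. The p-values weigh the difference between groups against the spread between these mice, which the fit moderates over genes. Counting errors cover counting alone. Alternatives included DESeq2 1.42.0, limma-voom (limma 3.58.1), other scalings and filters, a replicate block and each mouse left out. The pipeline was tested on simulated counts. Positions and lengths are from GENCODE M21, and promoters from RefSeq.

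The receptors and gene lists were chosen with earlier results of these data known. Named were every receptor of the 10, up to 3 genes per list with the smallest adjusted p under 0.05 and the other nuclear receptors under it, with exceptions marked where they appear. A few genes that the rule would name are not reported here. No set tests were run.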

Additional observations from a re-analysis of the deposited data

How the results depend on the processing

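Of 160 receptor values (10 receptors under 16 alternatives), 142 kept their direction and their side of the threshold, 7 of *Nr1i3* fell short of it and 11 changed sign. The sign changes were among receptors near 0. With library size alone, *Ppara* was at -0.062 and *Hnf4a* at -0.076. With each mouse left out, *Ppara* ran from -0.0057 to 0.14, *Nr1h4* from -0.14 to 0.050, *Nr1i2* from -0.14 to 0.049 and *Hnf4a* from -0.018 to 0.11. The 9 receptors other than *Nr1i3* were past the threshold under none of the alternatives. The number of receptors called was 1, 0 with library size alone, and 0 to 1 with each mouse left out.

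Over all genes, edgeR called 929 and DESeq2 1435, and leaving out each mouse gave 379 to 1235. Past 2-fold there were 200, or 123 to 250 with each mouse left out, and 123 was reached without vehicle mouse 2. With library size alone, 262 genes were called higher and 804 lower, against 506 and 423 with TMM. The fits that leave out a mouse have fewer samples, and the cause of these differences was not tested. Same-numbered mice shared only a number (correlations of their deviations between -0.02 and 0.08). With the replicate block, 827 genes were called, 170 past 2-fold, and 1 receptor (*Nr1i3*, log2 fold change 0.44, adjusted p = 0.0270 by edgeR). The lowest counts in a library were 54 for *Nr0b2*, 72 for *Ppard* and 73 for *Pparg*, and *Pparg* and *Ppard* had the lowest mean levels. With library size alone, the list medians moved down with that of all genes.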
